A study of Ovis aries with 16 samples.

Results

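DNA methylation peaks along 3 genes of the extracellular matrix, ADAMTS12, ADAMTSL1 and PCOLCE2, were examined in the longissimus dorsi (LD) muscle of 16 sheep fetuses, 8 whose dams ate hay and 8 whose dams ate corn. Each gene was taken from its lower to its higher coordinate on Oar_v3.1 with 10 kb added on each side, and every peak of the 16 fetuses that overlapped this span was a member. They numbered 1915 of the 6410742 peaks in the series, with 392 at ADAMTS12, 1167 at ADAMTSL1 and 356 at PCOLCE2. The dams were mature Polypay ewes assigned at random to the 2 diets and fed them from mid-gestation to necropsy in late gestation. The hay diet was alfalfa haylage, and the corn diet was corn with a supplement and a little haylage, at the same metabolizable energy. No other treatment and no genotype of the fetuses is given. All hay fetuses and most corn fetuses were twins of a shared dam, so each diet had fewer dams than fetuses, and p-values over fetuses are too small. LD is whole tissue, in which muscle fibers lie beside connective tissue, fat and vessels, so fewer methylated cells and less methylation per cell cannot be told apart. Fetuses are named here by diet and sample number, such as hay 15.

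The matrix around muscle fibers is built mainly from collagens and is remodelled by secreted enzymes. ADAMTS12 is a secreted metalloproteinase with thrombospondin motifs that cleaves matrix proteins. ADAMTSL1 belongs to the same family but lacks the protease domain and is a secreted matrix glycoprotein. PCOLCE2 binds procollagens and enhances the removal of their C-terminal propeptides, a step that precedes the assembly of collagen fibrils. In mammals CpG sites in gene bodies are mostly methylated. A methyl-binding domain (MBD) protein pulls down fragments with many methylated CpG sites more readily than those with few, though not in strict proportion. A stretch poor in CpG sites can therefore give no peak although the sites it holds are methylated.

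ADAMTS12 (ENSOARG00000011993) lies on chromosome 16 from 39935100 to 40186430 and is 251 kb long. ADAMTSL1 (ENSOARG00000014133) lies on chromosome 2 from 86407235 to 86900674 and is 493 kb long. PCOLCE2 (ENSOARG00000005926) lies on chromosome 1 from 244192902 to 244276222 and is 83.3 kb long. Each gene holds 1 region that was listed as differentially methylated between the diets (DMR). The ADAMTS12 DMR spans 839 bp from 40036423 to 40037261 and starts 101.3 kb from the lower-coordinate end of the gene. It is annotated to an exon with parts of both neighboring introns. The ADAMTSL1 DMR spans 348 bp from 86639975 to 86640322 and starts 233 kb into the gene. The PCOLCE2 DMR spans 258 bp from 244196373 to 244196630 and starts 3.47 kb into the gene. Positions below are distances from the lower-coordinate end of each gene, whose strand was not used. These DMRs were chosen by the diet difference in the same fetuses, so their values are described without a test and were left out of the diet tests of each gene.

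Peak calls varied between libraries. A fetus had 261331 to 519923 peaks, which covered 158 to 288 Mb. Hay 11 had the fewest peaks and hay 15 the most. No read depth is given with the peaks, so the gene values were scaled to the peak total or covered total of each fetus. A peak score is −log10 of the p-value given to the peak, divided by a scaling factor of 0.765 to 1.38 for the fetus, and it is 0 where no peak was called. The score rises with the width of a peak (Spearman correlation 0.818 over all peaks, a description), so it is not a methylation level.

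ADAMTS12 carried few peaks for its length, whereas ADAMTSL1 and PCOLCE2 were nearer to the rest of their chromosomes. In ADAMTS12 with its flanks, 2.92 ± 1.1% of bases lay under peaks (SD, n = 16), against 8.50 ± 1.51% in the rest of chromosome 16. The gene was lower in 16 of 16 fetuses (exact sign-flip permutation test, two-sided, p = 3.05e-05, the smallest possible). In ADAMTSL1 the covered share was 6.89 ± 1.12% (SD, n = 16), against 7.88 ± 1.35% in the rest of chromosome 2. It was higher in the gene in 1 of 16 fetuses (exact sign-flip permutation test, p = 6.10e-05). Without the flanks the share of ADAMTSL1 was 6.43 ± 1.09% (SD, n = 16), higher in the gene in 0 of 16 fetuses (exact sign-flip permutation test, p = 3.05e-05). In PCOLCE2 the covered share was 7.545 ± 2.07% (SD, n = 16), against 8.05 ± 1.38% in the rest of chromosome 1, and it was higher in the gene in 4 of 16 fetuses (exact sign-flip permutation test, p = 0.0222). The PCOLCE2 difference did not pass without the flanks, when it was -0.3945 percentage points (exact sign-flip permutation test, p = 0.112). With the flanks, and with peaks below the 25th percentile of score removed, it was -1.098 percentage points (exact sign-flip permutation test, p = 0.00061). These p-values speak of how steady a difference was over the fetuses, and they do not say that a gene stood apart from other genes.

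The order of the genes by covered share was clear at its lower end and weaker at its upper end. ADAMTS12 was below ADAMTSL1 in 16 of 16 fetuses and below PCOLCE2 in 16 of 16. The other 2 genes were close, and ADAMTSL1 was above PCOLCE2 in 2 of 16 fetuses. Covered shares ranged from 0.766% to 4.77% over fetuses in ADAMTS12, from 4.185% to 8.50% in ADAMTSL1 and from 3.56% to 10.98% in PCOLCE2. Hence the ranges of the last 2 genes overlapped although their order within most fetuses was the same.

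**Figure D1:**
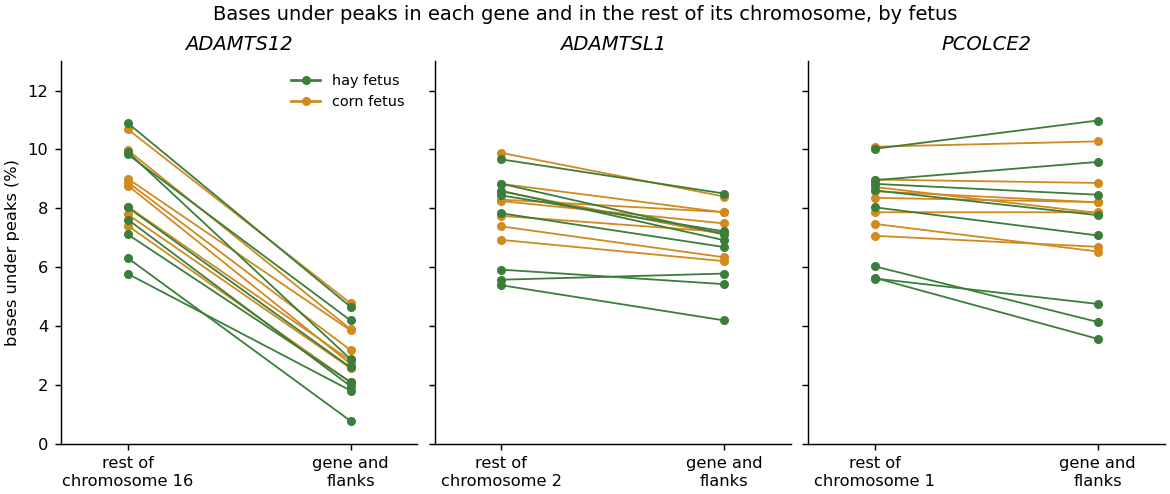
Bases under peaks, in percent, in the rest of the chromosome and in the gene with its flanks for each of the 16 fetuses, with a line for each fetus colored by maternal diet. Every line falls steeply at ADAMTS12, where the gene averaged 2.92% against 8.50%. The lines at ADAMTSL1 and PCOLCE2 fall less or rise, with the gene higher in 1 and 4 of the 16 fetuses. The steepest falls at PCOLCE2 are in hay 10 (6.02% to 4.13%) and hay 11 (5.63% to 3.56%).

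The 3 genes also differed in how many fetuses shared a peak. Peaks sharing at least 1 bp were merged into regions, and merged regions called in 2 or more fetuses are termed consensus regions. ADAMTS12 had 48 consensus regions, ADAMTSL1 had 99 and PCOLCE2 had 33, of 512238 in the genome. A peak in all 16 fetuses was found at 2 of the 48 in ADAMTS12 (4.17%), 21 of the 99 in ADAMTSL1 (21.2%) and 2 of the 33 in PCOLCE2 (6.06%), against 17.3% of all consensus regions. The median region was called in 5 fetuses in ADAMTS12, 7 in ADAMTSL1 and 8 in PCOLCE2 outside the DMRs, against 8 in the genome. Its median mean score was 0.438 in ADAMTS12, 0.709 in ADAMTSL1 and 0.738 in PCOLCE2, against 0.721 over all consensus regions. A further 27 regions of ADAMTS12, 39 of ADAMTSL1 and 11 of PCOLCE2 had a peak in a single fetus. ADAMTS12 thus had the smallest share of regions called in all fetuses and the lowest median score of the 3 genes, as a description of these loci.

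Along ADAMTS12 the peaks were gathered in the lower-coordinate part and around the DMR. With the gene divided into 3 equal parts of 83.8 kb, peaks covered 3.16 ± 1.79% of the lower part, 3.63 ± 1.28% of the middle part with the DMR and 1.33 ± 0.652% of the upper part (SD, n = 16). The lower flank, outside the gene, was covered at 8.95 ± 5.24%. A stretch of 29.7 kb, from 137 to 167 kb, had no peak in any fetus and was the longest such stretch in the 3 genes. The 3 regions of ADAMTS12 with the highest mean scores lay at 112.5 kb (mean scaled score 2.50), at 118 kb (1.81) and in the lower flank at -8.52 kb (1.71). The regions at 112.5 kb and at -8.52 kb were the 2 called in all fetuses.

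In ADAMTSL1 the peaks were denser toward the higher-coordinate end. Peaks covered 4.55 ± 1.109% of the lower part, 4.50 ± 1.26% of the middle part and 10.2 ± 1.43% of the upper part, each of 164.5 kb, and 24.97 ± 5.38% of the upper flank (SD, n = 16). The lowest fetus had 6.82% of the upper part covered. The 3 highest-scoring regions of the gene lay at 339.5 kb (mean scaled score 4.48), 52.8 kb (3.27) and 56.9 kb (3.11), and each was called in all 16 fetuses. Scores at 339.5 kb ran from 2.53 through a median of 4.48 to 6.23 in hay and from 2.67 through 4.87 to 5.945 in corn. The diets overlapped over nearly the whole range at this region. The longest stretch without a peak in any fetus was 21.0 kb, from 96.4 to 117 kb.

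In PCOLCE2 coverage rose from the lower to the higher coordinate. It was 2.705 ± 2.07% in the lower flank, then 5.25 ± 2.24%, 7.32 ± 2.12% and 10.4 ± 3.56% in the 3 parts of 27.8 kb, and 11.5 ± 6.31% in the upper flank (SD, n = 16). The longest stretch without a peak, 7.54 kb, began at -4.06 kb and crossed the lower end of the gene. It ended at 3.47 kb, where the peaks of the DMR began. The 3 highest-scoring regions lay at 4.26 kb (mean scaled score 2.28), 62.4 kb (2.21) and 75.1 kb (1.89). That at 62.4 kb was called in all 16 fetuses, with mean scores of 2.21 ± 0.555 in hay and 2.21 ± 0.302 in corn (SD, n = 8 each).

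**Figure D2:**
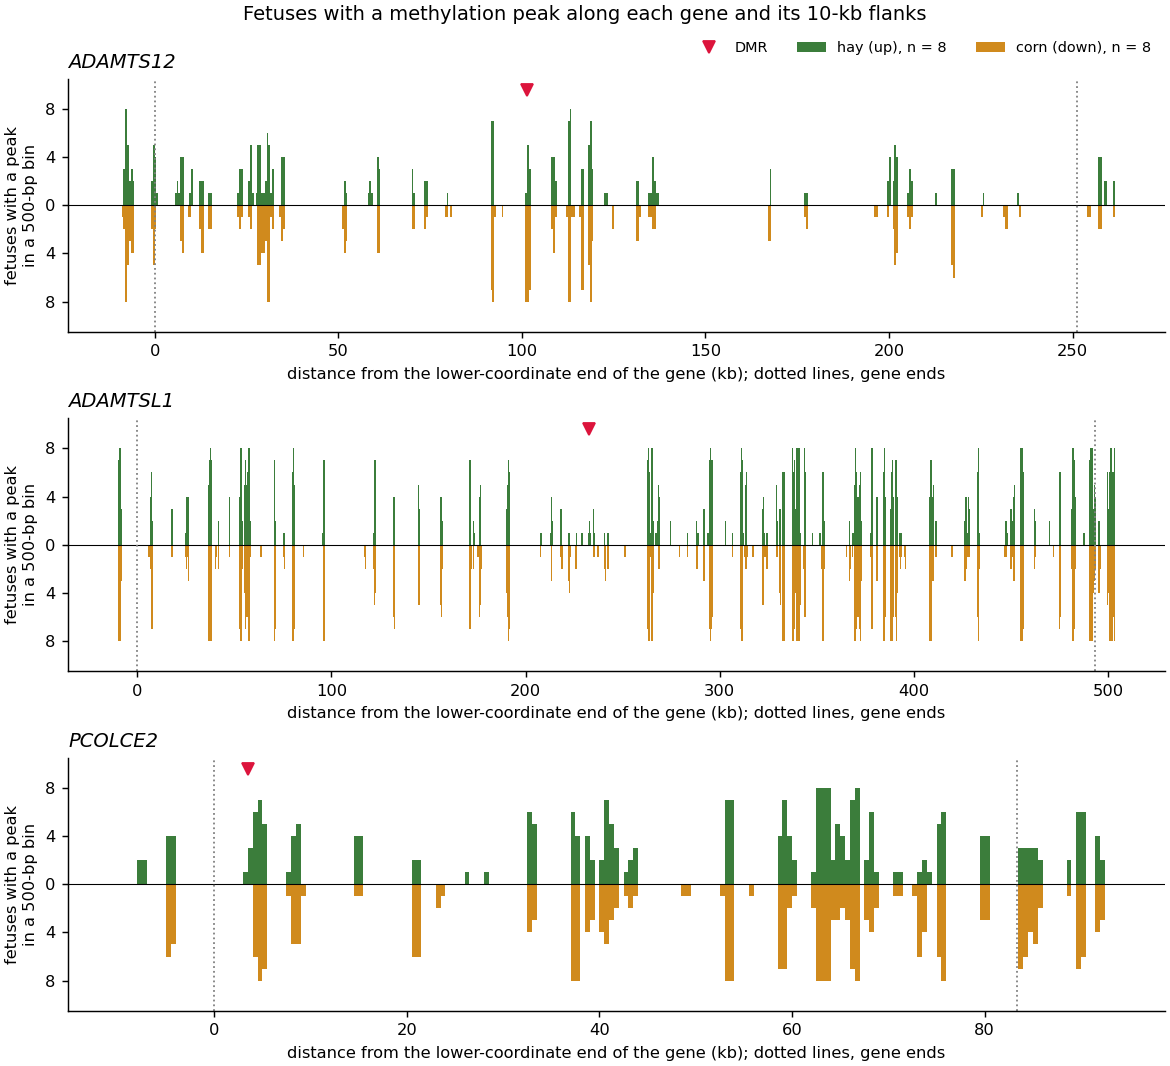
Number of fetuses with a peak in each 500-bp bin along the 3 genes, with fetuses from hay-fed ewes drawn upward and from corn-fed ewes downward (0 to 8 each), plotted against the distance in kb from the lower-coordinate end of the gene. Dotted lines are the gene ends and red triangles the DMRs. The empty 29.7 kb of ADAMTS12 begins at 137 kb, and the DMRs of ADAMTSL1 and PCOLCE2 have bins with hay fetuses alone.

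At the ADAMTS12 DMR a peak was called in every corn fetus (8 of 8) and in 5 of the 8 hay fetuses. The merged peaks there had the same borders as the DMR. The scaled scores of the corn fetuses were 1.70 (corn 1), 2.31 (corn 2), 1.74 (corn 4), 1.94 (corn 6), 2.08 (corn 7), 1.92 (corn 9), 1.97 (corn 13) and 2.38 (corn 14). Those of the hay fetuses were 0.905 (hay 5), 1.19 (hay 8), 1.111 (hay 11), 1.296 (hay 12) and 1.555 (hay 15), with 0 in hay 3, hay 10 and hay 16. Every corn fetus lay above every hay fetus, a pattern seen at 17 consensus regions of the genome (0.00332%). That pattern is not independent of the difference by which the DMR was chosen. The study also measured methylation at this DMR by bisulfite sequencing of DNA pooled by diet and sex. It reported high methylation in all pools, with no significant difference between the diets over the DMR or at single CpG sites.

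The extent of the ADAMTS12 peak differed as well as its score. Peaks covered 82.5 ± 22.2% of the DMR in corn and 21.3 ± 21.4% in hay (SD, n = 8 each). They ran from 29.8% (corn 4) to 98.9% (corn 6) in corn and from 0% to 57.3% (hay 8) in hay. A single peak covering at least 50% of the DMR was called in 7 corn fetuses and in 0 hay fetuses. Before scaling, the 5 hay peaks scored 0.991 to 1.35, below the median of 1.47 over all peaks in the series, whereas the corn peaks scored 1.36 to 3.29. Of the 3 hay fetuses without a peak, hay 10 had 298820 peaks in the genome, fewer than any corn fetus, and hay 3 (442885 peaks) and hay 16 (464210 peaks) had more than 6 of the 8 corn fetuses. The peaks of hay 3 and hay 16 were narrow, with median widths of 250 and 251 bp, against 250 to 508 bp in corn. Their scaling factors were 0.824 and 0.833, against 0.7815 to 1.38 in corn. The part of peak number, width or score level in these calls was not tested.

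At the other 2 DMRs most fetuses had no peak. The ADAMTSL1 DMR had a peak in hay 3 (scaled score 1.29, 34.8% of the DMR covered) and hay 15 (2.315, 73.6%). The PCOLCE2 DMR had a peak in hay 8 (scaled score 1.175) and hay 15 (1.43), which covered 42.25% to 88.4% of it. The other 5 hay fetuses and the 8 corn fetuses had no peak at either. With peaks below the 25th percentile of score removed, 1 hay fetus with a peak remained at each. Hay 15, which had a peak at both, also had the most peaks of all fetuses (519923), and the part of peak number in these calls was not tested. A score of 0 says that no peak was called and does not show that methylation was absent.

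At the regions next to the DMRs the diets overlapped. For ADAMTS12 the nearest regions called in at least 8 fetuses lay at 91.5 kb and 108 kb. At 91.5 kb the scaled score was 1.55 ± 0.806 in hay and 1.62 ± 0.412 in corn (SD, n = 8 each). At 108 kb, 4 hay and 4 corn fetuses had a peak, with scores of 0.730 ± 0.831 and 0.642 ± 0.701. Hay 3 and hay 16, without a peak at the DMR, had a peak at both neighbors. Hay 10 had the highest score of all fetuses at 91.5 kb (2.83) but no peak at 108 kb. With 7 peaks in ADAMTS12 and its flanks outside the DMR, hay 10 had the fewest of all fetuses. For ADAMTSL1 both neighbors, at 190 and 263 kb, were called in all 16 fetuses. The scores at 190 kb averaged 2.21 ± 0.776 in hay and 2.25 ± 1.115 in corn, and those at 263 kb averaged 2.74 ± 0.6003 and 2.35 ± 0.428 (SD, n = 8 each). For PCOLCE2 the neighbor at 4.26 kb, which starts 0.786 kb after the start of the DMR, was also the highest-scoring region of the gene. It was called in 8 corn and 7 hay fetuses, with scores of 2.525 ± 0.951 in corn and 2.04 ± 1.17 in hay. A small region at 3.755 kb, between that neighbor and the DMR, had a peak in hay 15 (2.02) and hay 16 (1.305) and in 0 corn fetuses. It was named after its values were seen. The lower PCOLCE2 neighbor at -4.96 kb had a peak in 7 corn and 4 hay fetuses. None of the 6 neighbors passed the test of diet across all regions described next (limma, adjusted p of 0.919 or more).

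**Figure D3:**
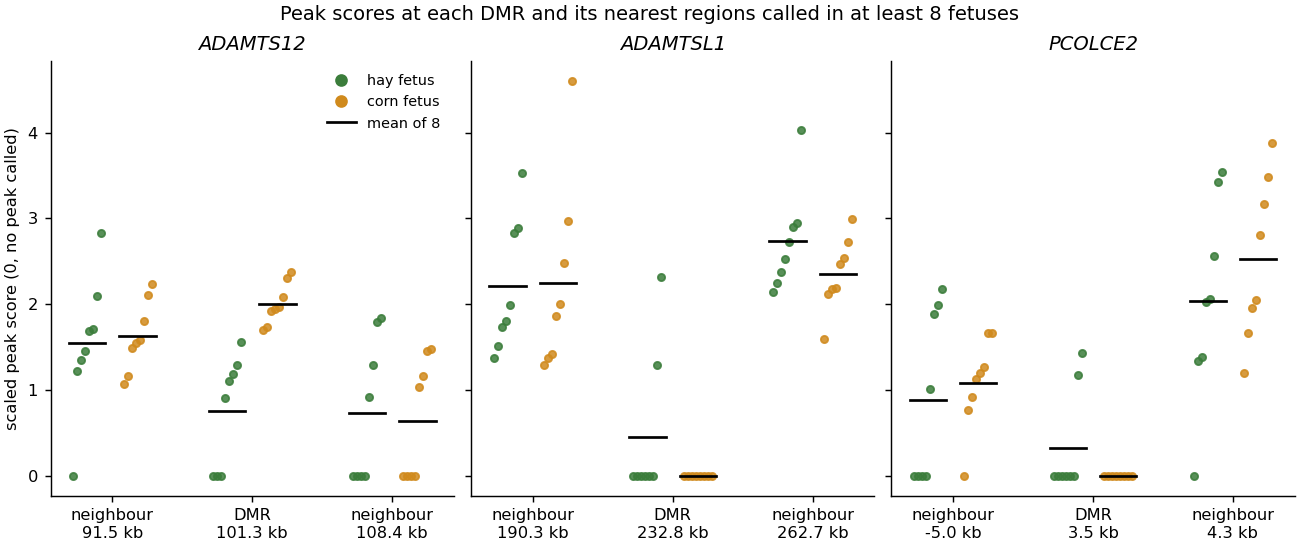
Scaled peak score of each fetus at the DMR of each gene and at the nearest region on each side called in at least 8 fetuses, by maternal diet, with black lines for the mean of 8 and 0 for no peak. The diets are apart at the ADAMTS12 DMR, where corn lies from 1.70 to 2.38 and hay from 0 to 1.555, and they overlap at all 6 neighbors.

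Outside the DMRs no region of the 3 genes passed the test of diet. Scores were compared as log2(scaled score + 1) in limma over all 512238 consensus regions with Benjamini-Hochberg adjustment. At an adjusted p under 0.1 limma called 3 regions in the genome (0.000586%) and 0 of the 177 in these genes, where the smallest adjusted p was 0.919. The regions at the 3 DMRs were in the same fit and were not among those called, which is given as a description only. At an unadjusted p under 0.05 limma called 5 of the 177 (2.82%), against 3.16% of all regions. These 5 were 2 of 47 in ADAMTS12, 2 of 98 in ADAMTSL1 and 1 of 32 in PCOLCE2, with 3 higher in corn (1.69%, against 1.73% of all regions) and 2 higher in hay (1.13%, against 1.43%). The median difference, hay minus corn, was 0.05 in ADAMTS12, 0.04 in ADAMTSL1 and 0.01 in PCOLCE2 on the log2 scale, against 0.02 over all regions. A peak was present in more corn fetuses at 61 of the 177 regions (34.5%, against 32.6% of all regions), in more hay fetuses at 61 (34.5%, against 28.9%) and in equal numbers at 55 (31.1%, against 38.4%). At 0 of the 177 were the diets without overlap, against 31 of all regions in either direction (0.00605%), and at 0 did the diets differ by 6 or more fetuses with a peak, which 0.0925% of all regions did. These shares were near the background, so they are no result about these genes.

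In ADAMTS12 the unadjusted p was under 0.05 at 116 kb and at 200 kb. At 116 kb, 14.7 kb beyond the start of the DMR, 7 corn and 3 hay fetuses had a peak. The corn scores ran from 0 (corn 9) through a median of 1.44 to 2.39 (corn 14), and the hay scores from 0 through 0 to 1.91 (hay 12). The difference was -0.72 ± 0.33 on the log2 scale (SE, limma, adjusted p = 0.919). At 200 kb a peak was called in 4 hay fetuses, with scores of 1.48 (hay 3), 1.75 (hay 12), 1.29 (hay 15) and 2.09 (hay 16), and in 0 corn fetuses. The difference was 0.70 ± 0.31 (SE, limma, adjusted p = 0.919). The next smallest p was at 125 kb, where corn 4 and corn 7 had a peak and 0 hay fetuses did. The 2 lead regions thus differed in opposite directions, and neither differed beyond the spread once all regions were allowed for.

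In ADAMTSL1 the unadjusted p was under 0.05 at 490 kb and 313 kb. At 490 kb, near the higher-coordinate end of the gene, the corn scores ran from 1.72 through a median of 1.975 to 3.42 and the hay scores from 0 (hay 3) through 1.41 to 2.01. The difference was -0.48 ± 0.20 (SE, limma, adjusted p = 0.919). At 313 kb a peak was called in 6 hay and 2 corn fetuses, and the difference was 0.74 ± 0.35 (SE, limma, adjusted p = 0.919). At 329 kb, with the next smallest p, 5 hay and 1 corn fetuses had a peak.

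In PCOLCE2 the unadjusted p was under 0.05 at 37.1 kb alone. All 8 corn fetuses had a peak there, with scores from 1.32 through a median of 1.865 to 2.595, and 6 hay fetuses did, with scores from 0 (hay 8 and hay 11) through 1.39 to 2.35. The difference was -0.46 ± 0.22 (SE, limma, adjusted p = 0.919). At 20.6 kb, 6 corn and 2 hay fetuses had a peak, and at 72.9 kb, 3 corn and 0 hay fetuses did. The diets overlapped at each of these regions.

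**Figure D4:**
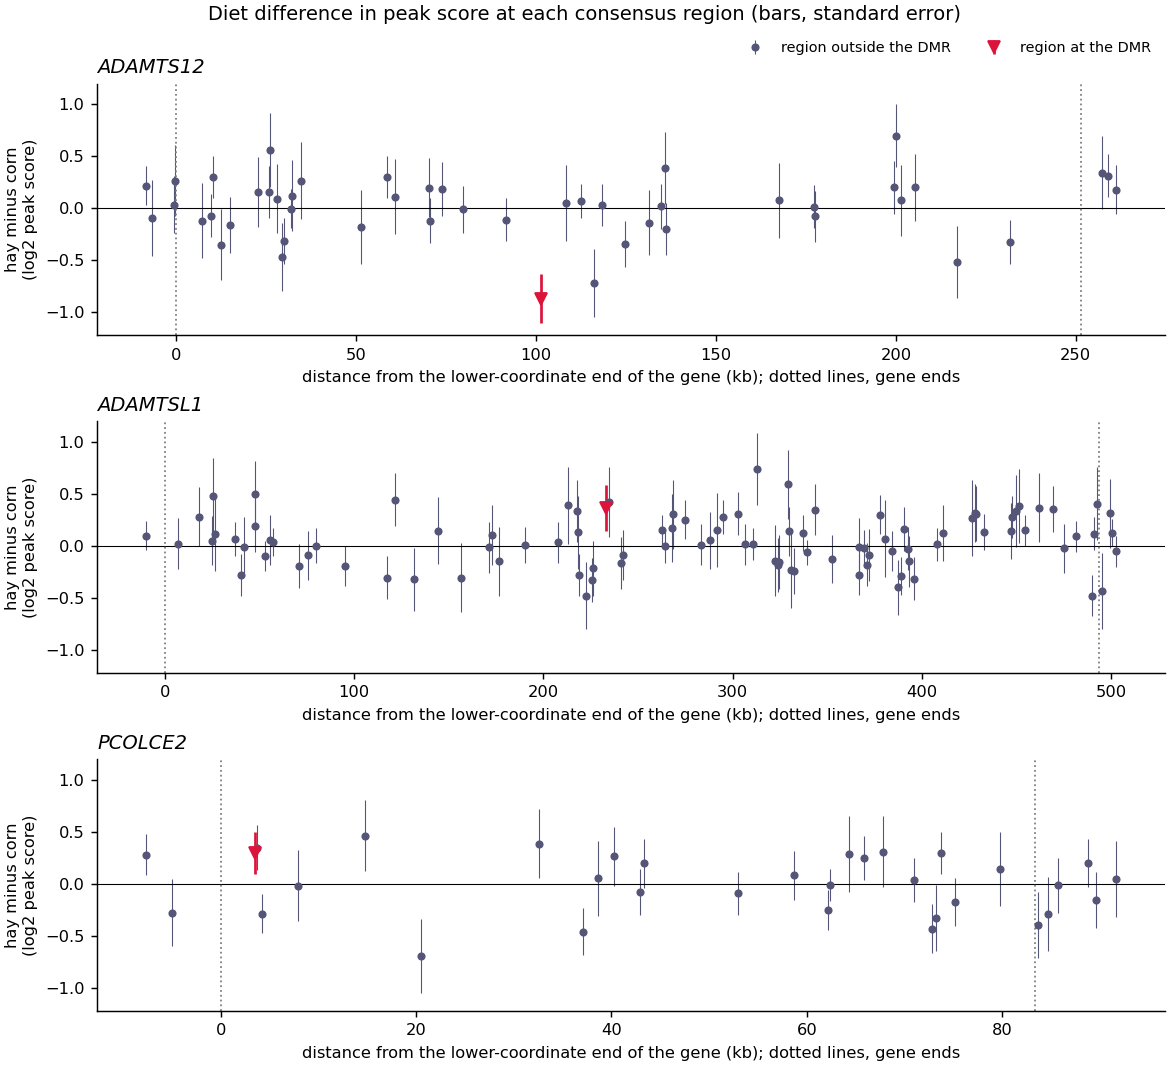
Difference in log2 peak score, hay minus corn, at each consensus region against its distance in kb from the lower-coordinate end of the gene, with bars for the standard error of the limma fit. Red triangles are the regions at the DMRs. Points outside the DMRs lie on both sides of 0 along each gene, and the ADAMTS12 DMR is the lowest point of its gene at -0.87, followed by the region at 116 kb at -0.72.

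Windows of 10 kb gave a similar count. The percent of each window under peaks, scaled to the covered total, was compared as log2(percent + 1) in limma over 216914 windows. The percents printed for windows are before this scaling, while the limma p-values are after it. At an adjusted p under 0.1 limma called 0 windows in the genome, and 8521 (3.93%) had an unadjusted p under 0.05. Outside the DMRs 3 of the 78 windows of these genes (3.85%) had an unadjusted p under 0.05. All 3 were higher in corn, against 2.66% of all windows. They were 1 of 45 windows in ADAMTSL1 and 2 of 10 in PCOLCE2, with 0 of 23 in ADAMTS12. The ADAMTSL1 window began at 383 kb and was covered at 18.0 ± 7.065% in hay and 24.6 ± 2.81% in corn (SD, n = 8 each, limma, adjusted p = 0.9999). The PCOLCE2 windows began at 17.1 kb, with 1.89 ± 2.99% in hay and 5.40 ± 3.90% in corn, and at 77.1 kb, with 5.135 ± 5.21% and 8.63 ± 4.12% (SD, n = 8 each, limma, adjusted p = 0.9999 for both). The first of these holds the region at 20.6 kb. In ADAMTS12, 19 of 24 windows lay below the genome median of 5.35% covered, as did 26 of 47 in ADAMTSL1 and 4 of 11 in PCOLCE2.

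Over each whole gene, outside the DMR, the diets did not differ beyond the spread between fetuses in any of 3 measures. Covered bases of ADAMTS12, per 1000000 covered bases of the fetus, ran from 11.5 (hay 10) through a median of 30.8 to 46.1 in hay and from 25.2 through 33.55 to 42.4 in corn. The means were 30.8 ± 10.7 in hay and 34.2 ± 6.26 in corn (SD, n = 8 each, exact permutation test, two-sided, p = 0.474). In ADAMTSL1 they were 154 ± 20.9 and 161.5 ± 10.8 (exact permutation test, p = 0.390). In PCOLCE2 they were 32.35 ± 6.92 and 35.7 ± 1.96 (exact permutation test, p = 0.214). The hay fetuses spread more widely than the corn fetuses in each gene, from 125 to 188 against 150 to 185 in ADAMTSL1 and from 23.25 to 42.7 against 32.4 to 38.8 in PCOLCE2. That difference in spread was not tested.

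Peak numbers and mean scores were compared in the same way. Peaks outside the DMR per 100000 peaks of the fetus numbered 5.52 ± 2.03 in hay and 5.96 ± 1.14 in corn in ADAMTS12 (SD, n = 8 each, exact permutation test, p = 0.6155). They numbered 18.25 ± 2.78 and 18.1 ± 1.79 in ADAMTSL1 (exact permutation test, p = 0.873). In PCOLCE2 they numbered 5.15 ± 1.02 and 5.77 ± 0.478 (exact permutation test, p = 0.145). Without hay 5 or without hay 15 the PCOLCE2 p fell to 0.0472 and 0.0496 in the exact permutation test, with differences of -0.820 and -0.816. Mean log2 scores over the consensus regions outside the DMR were 0.51 ± 0.22 in hay and 0.48 ± 0.16 in corn in ADAMTS12 (exact permutation test, p = 0.791). They were 0.85 ± 0.19 and 0.80 ± 0.20 in ADAMTSL1 and 0.69 ± 0.24 and 0.70 ± 0.16 in PCOLCE2 (SD, n = 8 each, exact permutation test, p = 0.605 and 0.926). The smallest p of these 9 tests was 0.145 before any correction, in a design that could reach 0.000155 with fetuses counted as independent.

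**Figure D5:**
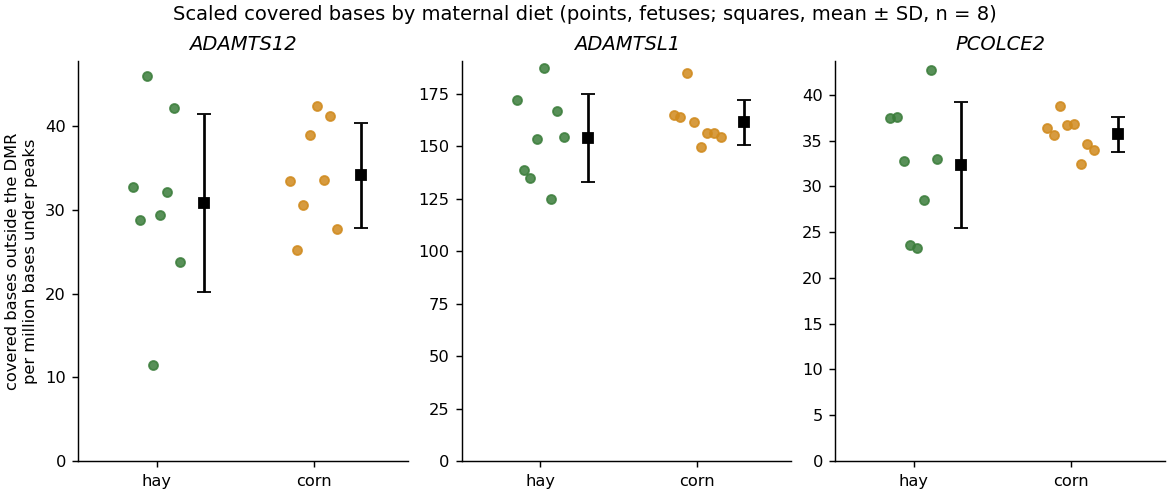
Covered bases outside the DMR per 1000000 bases under peaks in each fetus (points) for ADAMTS12, ADAMTSL1 and PCOLCE2 by maternal diet, with squares and bars for the mean ± SD of 8 fetuses. The diets overlap in each gene, with means of 30.8 and 34.2 in ADAMTS12, 154 and 161.5 in ADAMTSL1 and 32.35 and 35.7 in PCOLCE2 (hay and corn).

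In the middle part of ADAMTS12 the covered share differed less between the diets without the DMR than with it. That outcome was fixed in advance, because the DMR was chosen by its diet difference in these fetuses. Unlike the gene values, these shares were not scaled to the covered total of each fetus, so differences between libraries remain in them. With the DMR the middle part was covered at 2.79 ± 0.820% in hay and 4.47 ± 1.1% in corn, and without it at 2.60 ± 0.654% and 3.68 ± 1.03% (SD, n = 8 each, no test). The region at 116 kb lies in the same part.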

How the data were processed

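Methylated DNA from the LD muscle of 16 fetuses was captured with an MBD protein and sequenced in 2 lanes. Per the labels and methods, the authors used Trimmomatic 0.33 for trimming, BWA-mem 0.7.15 for alignment to Oar_v3.1, Picard 1.107 for removal of duplicates and ChIPseeqer for peak calling in each fetus. The authors deposited 1 list of peaks per fetus, with a chromosome, start, end and 1 value read here as a p-value (0 to 0.135, and 0 at 1315 peaks). This reading rests on the values. No threshold, input control, read counts or depth is given, so intervals based on depth were not possible, and low depth and low methylation cannot be told apart where a peak is missing. The DMRs came from the authors' test of reads (DiffBind with edgeR), which peak lists cannot repeat. DMR and gene positions came from the study's list of DMRs, and its fold differences and p-values were not used.

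Scores were −log10 of the p-value, with 1e-100 in place of a p of 0. Merging at an overlap of 1 bp gave 706111 regions, of which 512238 were called in 2 or more fetuses and retained. For each fetus the top score per region was divided by the fetus's median ratio at the 88488 regions called in all 16, and analyzed as log2(score + 1). Gene values were compared by exact permutation over 12870 assignments, genes with chromosomes by sign flips over 65536, and regions and 10-kb windows with limma 3.58.1 in R 4.3.3 (eBayes with trend) at a Benjamini-Hochberg threshold of 0.1. Chromosomes were taken to end at their last peak. Other steps were run in Python 3.11.15 (pandas 2.3.3, numpy 2.4.6, scipy 1.17.1). The limma fits were tried on 20000 rows of the data with the fetuses shuffled within each row. A shift of 1 or 2 on the log2 scale was added to hay in 100 rows each. Recovery was 57% and 100% of regions and 27% and 70% of windows, and 5.99% and 7.62% of calls were false. The adjustment there ran over fewer features, so these shares do not give the power of the fits over all regions and windows.

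The genes, lists and tests were chosen with earlier results of these data known. Regions named were those at each DMR, the nearest on each side with a peak in at least 8 fetuses, the 3 with the highest mean score and the 3 with the smallest limma p in each gene, and any differing by 6 fetuses in presence. Windows named were the 2 with the smallest p. A list of other matrix genes was not used because their Oar_v3.1 positions were not at hand. Per the study's description, all hay fetuses and most corn fetuses were twins sharing a dam. Dam, sex and lane are not given for the numbered samples, so twins could not be grouped, and p-values over fetuses, which count twins as independent, are too small. No sequence of Oar_v3.1 was used here.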

Additional observations from a re-analysis of the deposited data

Results flagged for a closer look

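Of 40 sets of 8 fetuses screened for a value far from the others, by Dixon's criterion, 1 was found. Chance alone flags about 1 in every 20 sets, so 1 among 40 is no more than chance gives. It was corn 4 in the covered bases of ADAMTSL1 outside the DMR, at 185 per 1000000 covered bases. The nearest corn fetus was at 165 and the lowest at 150. Corn 4 had 498464 peaks in the genome, the second highest number among corn fetuses, and the part of peak number in this value was not tested.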

How the results depend on the processing

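Of the gene tests, none crossed the threshold of 0.05 under any alternative that kept all fetuses or left out the 2 with the fewest peaks, and the sign of a small difference turned in 7 cases. Counting only peaks at or above the 25th percentile of score gave -0.00632 for the ADAMTS12 score and 0.00788 for PCOLCE2 peaks. Without score scaling the score differences were -0.0209 in ADAMTS12 and -0.0259 in ADAMTSL1. Without the hay and corn fetus that had the fewest peaks (hay 11 and corn 9), the difference was -0.348 for ADAMTSL1 peaks and 0.0164 for the PCOLCE2 score, which was 0.01225 without flanks. The PCOLCE2 share against its chromosome no longer passed without flanks (-0.3945, exact sign-flip permutation test, p = 0.112). It passed with the stricter peaks (-1.098, exact sign-flip permutation test, p = 0.00061). At the ADAMTS12 DMR the log2 difference of -0.87 became -0.29 with a pseudocount of 5, which shrinks log2 values, and -1.40 when only peaks covering at least 50% of it were counted. Regions called in the genome at an adjusted p under 0.1 numbered 11 with a pseudocount of 5, 46 without scaling, 43 without the filter on fetuses, 43 with peak number as a covariate and 0 with percentiles, with the filter at 8 fetuses or with the stricter peaks. Outside the DMRs the regions with an unadjusted p under 0.05 became 3 without scaling, 2 without the filter and 2 with the covariate in PCOLCE2, 1 with percentiles in ADAMTSL1, and 1 with the filter at 8 fetuses and 0 with the stricter peaks in ADAMTS12. Windows became 2 in ADAMTSL1 and 1 in PCOLCE2 without scaling, 1 in PCOLCE2 with the stricter peaks, and 0 in both with windows of 50 kb, which turned the ADAMTS12 window at 255 kb to -0.20 and the ADAMTSL1 window at 42.8 kb to -0.033. Except where its construction shows it, the cause was not tested.

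Leaving out each fetus was added after the data were seen. Differences in covered bases ran from -5.50 to -0.562 (without hay 10) in ADAMTS12, -12.2 to -3.20 in ADAMTSL1 and -4.81 to -2.03 in PCOLCE2. Those in peaks ran from -1.02 to 0.0160, -0.401 to 0.644 and -0.820 to -0.434, and those in score from -0.0222 to 0.0750, 0.0125 to 0.101 and -0.0695 to 0.0393. Against the chromosome they ran from -5.69 to -5.48, -1.07 to -0.941 and -0.601 to -0.400 percentage points, all with p under 0.05. The PCOLCE2 peak number passed 0.05 without hay 5 and without hay 15. No paired analysis was possible because no sample number occurs in both diets. The number of peak calls, not a known depth, limits all values.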

Other observations

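Among the 29 other genes with positions in the list of DMRs, those whose scaled covered bases ran most like ADAMTS12 over the 16 fetuses were NBEA (Spearman correlation 0.779) and ALG5 (0.641). For ADAMTSL1 they were ENSOARG00000020130 and ENSOARG00000026486 (0.624 for both, which overlap each other), and for PCOLCE2 they were RAPGEF5 (0.729) and FRMD3 (0.576). The 3 matrix genes were less alike, with 0.297 for ADAMTSL1 and PCOLCE2, 0.291 for ADAMTS12 and PCOLCE2 and -0.0382 for ADAMTS12 and ADAMTSL1. All points share the libraries and their depth, and these values are descriptions with no test.

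The window of ADAMTS12 with the smallest limma p lay across its higher-coordinate flank, from 255 kb. It had peaks in 6 hay and 3 corn fetuses and was covered, before scaling, at 3.09 ± 2.415% in hay and 1.12 ± 1.81% in corn (SD, n = 8 each, limma on scaled values, adjusted p = 0.9999). The next, from 115 kb, holds the regions at 116 and 118 kb and was covered, before scaling, at 6.41 ± 3.18% in hay and 9.835 ± 3.66% in corn (limma on scaled values, adjusted p = 0.9999). In ADAMTSL1 the window with the next smallest p began at 42.8 kb and had peaks in 4 hay and 1 corn fetuses (limma, adjusted p = 0.9999).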
